A study of Homo sapiens with 38 samples.

Results

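The genes described here are 55 genes of chromosome 20 that were listed because their signal was lower in 16R6-4, a melanoma cell clone, than in its parent line A375. The list had been drawn from line differences measured on these arrays, within each of 7 treatments, so the line difference of the members is given as a description with no test. One probe set stood for each gene, the one with the highest mean log2 signal among those naming that gene alone. Of the 55 genes 54 were measured, among 522 measured genes of chromosome 20 and 18063 measured genes in all, and NCOA3 was not analysed here.

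The study hybridised 38 Affymetrix arrays with a single label each, 18 of A375 and 20 of 16R6-4. A375 is an established human melanoma line, and 16R6-4 is a single clone derived from it that had acquired resistance to GSK2118436 (GSK436, dabrafenib), an inhibitor of RAF kinases. The other drug was GSK1120212 (GSK212, trametinib), an inhibitor of MEK, the kinase that RAF activates and that in turn activates ERK. Every group was exposed for 24 h in the same serum-containing medium. A375 gave 3 arrays with the solvent DMSO, 2 with 0.1 µM GSK436, 2 with 1 µM GSK436, 3 with 10 nM GSK212, 2 with 30 nM GSK212, 3 with 10 nM GSK212 plus 0.1 µM GSK436 (the lower combination) and 3 with 10 nM GSK212 plus 1 µM GSK436 (the higher combination). 16R6-4 gave 2 arrays with DMSO and 3 with each of the same 6 drug treatments. Since 16R6-4 is 1 clone, what is particular to this clone and what goes with resistance cannot be told apart. The labels name replicates without saying whether each had its own culture, so p-values measure only the spread between these samples.

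Genes that lie on the same chromosome share no function as such, and the members range from proteasome subunits to kinases. What they have in common is position: a chromosome or a stretch of it is gained or lost as a unit, and the transcript level of many genes on it then moves with the number of copies. Copy number was not measured in this study. RAF, MEK and ERK form a kinase cascade that drives growth in melanoma cells, and inhibitors of it lower transcripts of growth, ribosome assembly and cell cycle programmes.

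Promoter sequences of 3 members are shown as examples. As described further on, TRMT6 fell and MAVS rose in every drug treatment of A375 and ESF1 fell in 5 of 6. Other members that fell or rose in every treatment are not shown, so these windows do not stand for such members as a group. RefSeq windows (GRCh38.p14) running from 250 bases before to 50 bases after the transcription start were matched by symbol for 46 of the 55 members. The windows are chr20:5950484-5950783 on the minus strand, chr20:13784870-13785169 on the minus strand and chr20:3846584-3846883 on the plus strand, each printed 5′ to 3′. Capitals mark matches, on either strand, to the core of sites bound by ETS factors (CCGGAAG, the reverse strand reading CTTCCGG), to the E-box CACGTG bound by MYC and related factors, and to the cyclic AMP response element TGACGTCA.
TRMT6: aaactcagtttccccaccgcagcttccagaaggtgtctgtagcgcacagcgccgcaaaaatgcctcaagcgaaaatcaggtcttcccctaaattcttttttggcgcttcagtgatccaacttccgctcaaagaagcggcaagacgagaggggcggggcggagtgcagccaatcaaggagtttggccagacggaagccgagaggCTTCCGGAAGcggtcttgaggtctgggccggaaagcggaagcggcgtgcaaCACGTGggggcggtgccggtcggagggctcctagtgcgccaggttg
ESF1: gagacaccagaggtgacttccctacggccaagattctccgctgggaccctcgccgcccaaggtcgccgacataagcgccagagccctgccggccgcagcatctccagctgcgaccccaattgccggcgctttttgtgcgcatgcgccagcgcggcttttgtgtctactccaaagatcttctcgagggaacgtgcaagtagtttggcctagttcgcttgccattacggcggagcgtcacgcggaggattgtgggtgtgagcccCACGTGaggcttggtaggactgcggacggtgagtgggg
MAVS: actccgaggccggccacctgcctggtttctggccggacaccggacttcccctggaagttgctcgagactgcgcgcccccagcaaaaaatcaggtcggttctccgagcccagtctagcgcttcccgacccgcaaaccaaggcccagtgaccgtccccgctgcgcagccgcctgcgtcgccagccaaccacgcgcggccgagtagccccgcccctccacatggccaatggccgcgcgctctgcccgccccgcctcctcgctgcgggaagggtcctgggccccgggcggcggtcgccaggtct
The TRMT6 window held 2 ETS matches, which overlap one another on opposite strands, and 1 E-box. The ESF1 window held 1 E-box and shares 208 of its 300 bases with the window of NDUFAF5, another member, which is read in the opposite direction. MAVS held none of the 3 motifs. Over all members with a window, 16 of 46 held the ETS core (12.2% of 27305 genes with a window), 8 held the E-box (8.77%) and 2 held the cyclic AMP response element (2.25%). These 27305 genes include genes not measured here. No share was counted over genes with signals like those of the members, so no enrichment can be read from these counts. Of the members with a window that fell in at least 1 treatment of A375, 8 of 19 held the ETS core, 6 the E-box and 1 the cyclic AMP response element. Of those that rose, 4 of 15 held the ETS core and 1 each of the other motifs. No difference was tested. These matches describe letters only, and nothing follows from them about binding.

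The label of the list, genes lower in the clone, was checked first. With DMSO 52 of the 54 measured members had a lower mean log2 signal in 16R6-4, and the exceptions lay at the boundary, STK4 at a log2 difference of 0.01 and ADNP at 0.04. The members nearest to 0 on the lower side with DMSO were VAPB at -0.10 and NAA20 at -0.11. The median member stood at a log2 difference of -0.55 with DMSO, which is 68.4% of the parental signal, while the median over 7679 brighter genes was -0.02 and over all 18063 genes -0.10. Brighter genes are those whose mean lies above the 75th percentile of all signals, 128.16, and 52 of the 54 members are among them, all but UBOX5 and POLR3F. The share of genes lower in the clone with DMSO was 57% over all measured genes and 51.5% over the brighter ones. For 34 members no clone array with DMSO reached the lowest parental array with DMSO, beside 19.9% of all genes and 19.8% of brighter genes. The members were chosen on this contrast, so these counts carry no weight of their own.

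With drug the list was less uniform. The median member differed by -0.44 with 0.1 µM GSK436, -0.46 with 1 µM GSK436, -0.43 with 10 nM and with 30 nM GSK212, -0.37 with the lower combination and -0.57 with the higher one. The number of members that were lower in the clone went from 52 with DMSO to 34, 38, 40, 46, 45 and 42 in these treatments. Only 32 members were lower in all 7 treatments (18.9% of all genes and 22.7% of the brighter genes were), and 22 were higher in at least 1. On the mean of the 7 treatments 40 members were lower and 14 were higher. PRNP and TRMT6 were lower in the clone with DMSO alone. "Lower in the clone" therefore describes nearly the whole list without drug and 32 of its 54 measured genes across the treatments.

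The figures depend on how arrays are scaled. The deposited arrays share a trimmed mean, and their median signal ran from 21.6 to 52.4, so centring each array on its median moved the median brighter gene from 0.05 to 0.45 on the 7-treatment mean and the median member from -0.49 to -0.09. The members' median then turned positive with 0.1 µM GSK436 (0.24) and 1 µM GSK436 (0.28), and 22 members were lower in all 7 treatments. Quantile normalization left 33 members lower in all 7 and a median of -0.46. The distance between the median member and the median brighter gene does not depend on a shift of a whole array: it was -0.54 on the 7-treatment mean as deposited and after centring, -0.49 after quantile normalization and -0.50 with the RNA quality measure below as a covariate. Measured against the median brighter gene, 33 members were lower in all 7 treatments under each of these 4 scalings, beside 24.2% of the brighter genes as deposited.

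**Figure D1:**
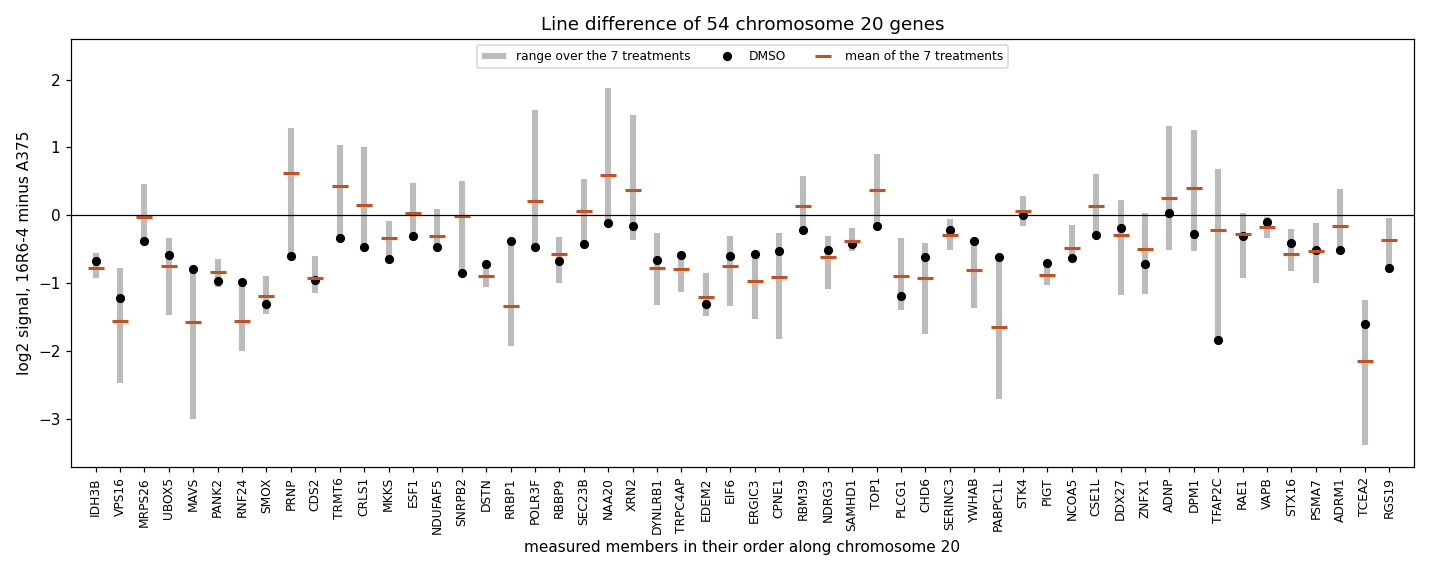
Log2 signal in 16R6-4 minus A375 for the 54 measured members in their order along chromosome 20, with DMSO (dots), as the mean of the 7 treatments (orange dashes) and as the range over the 7 treatments (grey bars). Nearly all dots lie below 0, TCEA2 is lowest on the mean at -2.15, and PRNP, NAA20 and TRMT6 are highest with means of 0.63, 0.60 and 0.43.

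The lower signal was not limited to the listed genes. The region had itself been named as lower in the clone from these data, so its values are a description with no test. Its brighter genes include 52 of the members. Of the 223 brighter genes of chromosome 20, 93.3% were lower in the clone with DMSO and 76.2% on the mean of the 7 treatments, against 51.5% and 46.7% of all brighter genes. Their median was -0.44 with DMSO and -0.43 on the mean, or 74.2% of the parental signal on the mean. The 171 brighter genes of the chromosome that are not on the list had the same median, -0.43 on the mean and -0.42 with DMSO. Along the chromosome in the order of RefSeq (GRCh38.p14), the medians of 4 successive stretches of 55 or 56 brighter genes were -0.54 from ZCCHC3 to DTD1, -0.47 from RIN2 to AAR2, -0.43 from DLGAP4 to B4GALT5 and -0.33 from RNF114 to PCMTD2. On the deposited scale all 4 medians were below 0, and 78.6%, 73.2%, 74.5% and 78.6% of the genes of these stretches were lower on the mean. Shorter stretches were not examined. Among the 23 chromosomes compared (1 to 22 and X), chromosome 20 had the lowest median on the 7-treatment mean, before chromosome 15 at -0.35 and chromosome 7 at -0.24, while chromosome 18 stood highest at 0.46. With DMSO alone chromosome 15 was lower, at -0.48. Under each of the 4 scalings chromosome 15 was lowest and chromosome 20 next to it with DMSO.

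**Figure D2:**
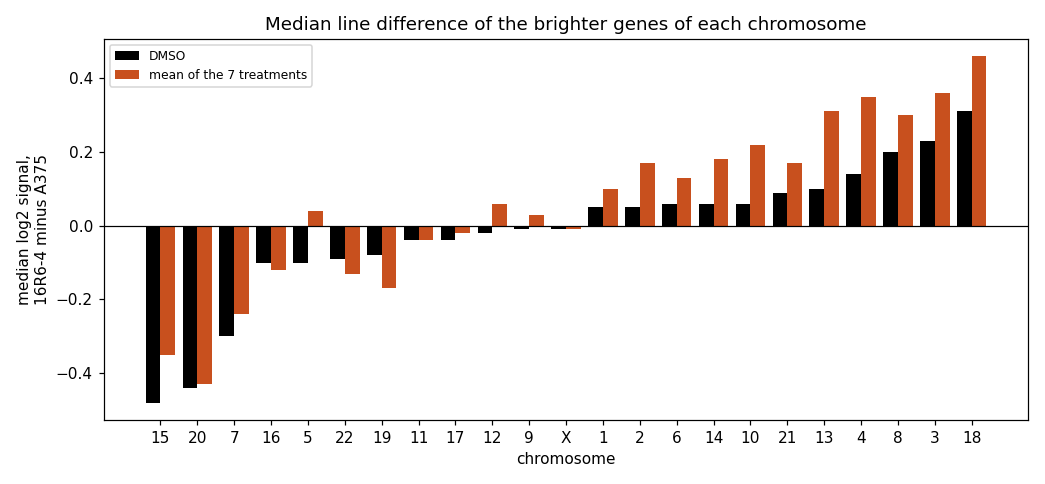
Median log2 signal in 16R6-4 minus A375 over the brighter genes of each chromosome, with DMSO (black) and as the mean of the 7 treatments (orange), ordered by the DMSO value. Chromosomes 15 and 20 lie lowest, at -0.48 and -0.44 with DMSO, and chromosome 18 highest.

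Among the brighter genes of the chromosome outside the list, single genes lay far from the chromosome's median in both directions. PMEPA1, an inhibitor of TGF-beta signalling, differed by -6.39 on the 7-treatment mean (mean signal 1610 in A375 and 19.9 in 16R6-4). PYGB, the brain form of glycogen phosphorylase, differed by -2.94, and JAG1, a ligand of Notch receptors, by -2.09. PLCB4, a phospholipase C, was higher in the clone by 1.93, the organic anion transporter SLCO4A1 by 1.51 and RIN2, a guanine nucleotide exchange factor for RAB5, by 1.5. SLCO4A1 was lower in the clone with DMSO (-0.24) and higher by up to 3.73 with drug.

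Among the members, 10 of the 12 genes of the endoplasmic reticulum, Golgi and vesicle traffic were lower in all 7 treatments, and the median of the 12 was -0.90 on the mean. RNF24, a RING finger protein of the Golgi, stood at -1.56, VPS16, a subunit of the tethers that bring vesicles to lysosomes, at -1.55, and RRBP1, the ribosome-binding protein of the reticulum, at -1.34. EDEM2, which trims mannose from misfolded glycoproteins, stood at -1.20, ERGIC3, a cargo receptor between reticulum and Golgi, at -0.97, CDS2, which makes CDP-diacylglycerol, at -0.92, and PIGT, a subunit of the enzyme that attaches GPI anchors, at -0.88. STX16 (-0.57), a SNARE of the Golgi, SERINC3 (-0.29) and VAPB (-0.17), a tether between reticulum and other membranes, were lower by less. SEC23B, a COPII coat protein, and DPM1, the catalytic subunit of dolichol phosphate mannose synthase, were lower with DMSO (-0.42 and -0.27) and in 2 treatments each, and stood at 0.06 and 0.40 on the mean. On the arrays with DMSO, PIGT read 759, 829 and 777 in A375 and 476 and 489.7 in 16R6-4. Over all treatments its lowest parental array read 664 and its highest clone array 620.5, so the lines did not overlap. CDS2 was dimmer but equally separate, at 195 to 296 in A375 and 82.9 to 169 in 16R6-4. DPM1 had the highest mean signal of these genes. In the order DMSO, 0.1 µM GSK436, 1 µM GSK436, 10 nM GSK212, 30 nM GSK212, lower and higher combination, mean DPM1 signals in A375, with their SD over the 2 or 3 arrays, were 5640 ± 1230, 2580 ± 610, 2120 ± 672, 3670 ± 1450, 6270 ± 222, 4830 ± 451 and 3130 ± 528. Mean DPM1 signals in 16R6-4 were 4610 ± 473, 4570 ± 1870, 4950 ± 334, 5190 ± 229, 4520 ± 1380, 5870 ± 482 and 5260 ± 582. DPM1 was lower in the clone with DMSO (-0.27) and 30 nM GSK212 (-0.52) and higher in it with the 5 other treatments, by up to 1.26. With the log2 actin ratio, a measure of RNA quality described further on, as a covariate, DPM1 stood at -0.34 with DMSO, -0.51 with 30 nM GSK212 and up to 1.01 elsewhere.

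The 2 genes of the cytoskeleton were lower in all 7 treatments. DSTN, destrin, which severs actin filaments, differed by -0.89 and DYNLRB1, a light chain of cytoplasmic dynein, by -0.77. Mean DSTN signals in A375, in the same order of treatments, were 3780 ± 135, 4620 ± 459, 4700 ± 412, 5770 ± 565, 5910 ± 504, 5530 ± 687 and 5260 ± 248. Mean DSTN signals in 16R6-4 were 2300 ± 226, 2210 ± 157, 2570 ± 37, 3070 ± 297, 2980 ± 492, 2890 ± 94.6 and 3100 ± 34.8. No clone array of DSTN, at 2030 to 3360, reached the lowest parental array, at 3680. Every clone array lay below every parental array for 4 members, DSTN, IDH3B, CDS2 and PIGT, beside 0.841% of all genes and 1.3% of the brighter ones. In DYNLRB1 the lines overlapped, at 3050 to 5640 in A375 and 1820 to 3370 in 16R6-4.

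Of the 6 genes of kinase, G protein and lipid signalling 5 were lower in all 7 treatments, with a median of -0.71. CPNE1, a calcium-dependent phospholipid-binding protein, stood at -0.91, PLCG1, phospholipase C gamma, at -0.89, YWHAB, a 14-3-3 protein that binds phosphorylated RAF, at -0.80, NDRG3 at -0.62 and RGS19, which shortens G protein signals, at -0.36. STK4, a kinase of the Hippo pathway, did not follow, with 0.06 on the mean and differences of -0.16 to 0.28. YWHAB was the brightest member. Mean YWHAB signals in A375, in the same order of treatments, were 10800 ± 1940, 17400 ± 910, 21600 ± 2760, 15100 ± 3940, 12400 ± 2350, 12400 ± 1450 and 18200 ± 1220. Mean YWHAB signals in 16R6-4 were 8230 ± 1270, 10300 ± 2920, 8430 ± 980, 9010 ± 593, 8300 ± 2280, 8210 ± 595 and 8130 ± 448. The gap in YWHAB was widest with 1 µM GSK436 (-1.36) and the higher combination (-1.16) and narrowest with DMSO (-0.38).

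Of the 5 proteasome, ubiquitin and chaperone genes 4 were lower in all 7 treatments. TRPC4AP, an adaptor of a ubiquitin ligase, stood at -0.79, UBOX5, a ubiquitin ligase, at -0.74, PSMA7, an alpha subunit of the proteasome core, at -0.53 and MKKS, a chaperonin-like protein, at -0.33. ADRM1, the ubiquitin receptor of the proteasome, was lower in 5 treatments, with -0.15 on the mean. Mean PSMA7 signals in A375, in the same order of treatments, were 9010 ± 2220, 10100 ± 1810, 11700 ± 238, 8920 ± 2500, 7090 ± 58.1, 8430 ± 284 and 9840 ± 295. Mean PSMA7 signals in 16R6-4 were 6250 ± 931, 7300 ± 1720, 5900 ± 236, 5960 ± 195, 6640 ± 1390, 6400 ± 422 and 6220 ± 439. Both innate immune genes were lower in all 7 treatments, MAVS, the mitochondrial adaptor of RNA sensing, at -1.57 and SAMHD1, which degrades deoxynucleotides, at -0.38. SAMHD1 read 291 to 644 in A375 and 262 to 539 in 16R6-4, so its lines overlapped widely.

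Mitochondrial genes were split. IDH3B, a subunit of the isocitrate dehydrogenase of the citric acid cycle, and PANK2, which starts coenzyme A synthesis, were lower in all 7 treatments, at -0.78 and -0.83. NDUFAF5, an assembly factor of complex I, was lower in 6 (-0.31). MRPS26, of the mitochondrial ribosome, and CRLS1, cardiolipin synthase, stood at -0.03 and 0.15. Mean IDH3B signals in A375, in the same order of treatments, were 1280 ± 179, 1440 ± 48.1, 1550 ± 42, 1400 ± 175, 1220 ± 16.2, 1410 ± 67.2 and 1520 ± 84.6. Mean IDH3B signals in 16R6-4 were 805 ± 117, 833 ± 88.2, 819 ± 48, 800 ± 22.2, 828 ± 81.3, 789 ± 11.9 and 830 ± 122. The IDH3B difference was among the steadiest of the list, between -0.92 and -0.56.

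Of the 10 genes of RNA processing, ribosome assembly and translation 8 were not lower in all 7 treatments, nor were 5 of the 8 genes of chromatin, transcription and nuclear transport and 3 of the 5 mitochondrial genes, and no difference between roles was tested. In the group of 10 the median was -0.14, and PABPC1L, a poly(A)-binding protein, at -1.65 and EIF6, which keeps ribosome subunits apart, at -0.74 were lower in all 7 treatments. The others were ZNFX1, an RNA helicase (-0.50), DDX27 of ribosome assembly (-0.29), RAE1 of mRNA export (-0.27), SNRPB2 of the U2 snRNP (-0.01), ESF1 of ribosomal RNA processing (0.03), the splicing factor RBM39 (0.14), the exonuclease XRN2 (0.38) and TRMT6 (0.43). Mean EIF6 signals in A375, in the same order of treatments, were 4990 ± 1170, 5090 ± 811, 7390 ± 961, 4640 ± 1510, 3410 ± 142, 4100 ± 167 and 5860 ± 298. Mean EIF6 signals in 16R6-4 were 3250 ± 553, 3510 ± 482, 2920 ± 171, 2570 ± 76.1, 2770 ± 434, 2670 ± 430 and 2980 ± 340. In the group of 8 the median was -0.04, and TCEA2, an elongation factor of RNA polymerase II, at -2.15, CHD6, a chromatin remodeller, at -0.93 and NCOA5, a nuclear receptor coactivator, at -0.48 were lower in all 7. TFAP2C, the transcription factor AP-2 gamma, stood at -0.22, CSE1L, an export receptor of importin alpha, at 0.14, POLR3F of RNA polymerase III at 0.21, the homeobox protein ADNP at 0.25 and topoisomerase TOP1 at 0.37. Mean CSE1L signals in A375, in the same order of treatments, were 7200 ± 67.6, 3650 ± 689, 3720 ± 225, 4570 ± 360, 4230 ± 800, 4480 ± 704 and 3180 ± 419. Mean CSE1L signals in 16R6-4 were 5920 ± 591, 4970 ± 1140, 5670 ± 293, 4960 ± 143, 4540 ± 408, 4010 ± 796 and 3510 ± 550. CSE1L was lower in the clone with DMSO (-0.29) and the lower combination (-0.17) and higher in it by up to 0.61 elsewhere.

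The 4 remaining genes were SMOX, spermine oxidase (-1.19), RBBP9, a serine hydrolase (-0.57), NAA20, the catalytic subunit of the NatB acetyltransferase (0.60), and PRNP, the prion protein (0.63). SMOX and RBBP9 were lower in all 7 treatments.

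The 3 members with the most negative mean line difference were TCEA2, PABPC1L and MAVS. The TCEA2 signal on the parental arrays was 232, 151 and 365 with DMSO, 369.6 and 326 with 0.1 µM GSK436, and 597 and 626 with 1 µM GSK436. Under GSK212, alone or combined, it was 505, 476 and 292 with 10 nM GSK212 and 267 and 191 with 30 nM GSK212, and 211, 256 and 249 with the lower combination and 554, 311 and 458 with the higher combination. The parental TCEA2 values were highest with 1 µM GSK436. On the clone's arrays TCEA2 read 105 and 53.5 with DMSO, 79.4, 56.1 and 152 with 0.1 µM GSK436, and 60.4, 68.8 and 42 with 1 µM GSK436. For GSK212, alone or combined, it read 42, 83.4 and 57.2 with 10 nM GSK212 and 107, 44.2 and 64.3 with 30 nM GSK212, and 88, 82.8 and 134 with the lower combination and 53.5, 110 and 84.9 with the higher combination. TCEA2 overlapped between the lines by a single pair of arrays, a clone array with 0.1 µM GSK436 at 152 and a parental array with DMSO at 151. That clone array had an actin ratio of 37.4, against 4.65 and 17.8 in its group. It also read highest of its group for PABPC1L and MAVS. The PABPC1L signal on the parental arrays was 518, 420 and 722 with DMSO, 1513 and 1857 with 0.1 µM GSK436, and 2772 and 3073 with 1 µM GSK436. GSK212, alone or combined, gave 1811, 1926 and 1256 with 10 nM GSK212 and 933 and 1390 with 30 nM GSK212, and 1460.4, 1294 and 1254 with the lower combination and 2542, 2488 and 3055 with the higher combination. Every drug-treated parental array of PABPC1L lay above the parental DMSO arrays. On the clone's arrays PABPC1L read 405 and 309 with DMSO, 258, 377 and 895 with 0.1 µM GSK436, and 522, 453 and 368 with 1 µM GSK436. Under GSK212, alone or combined, it read 628, 428 and 596 with 10 nM GSK212 and 513, 399 and 417 with 30 nM GSK212, and 435, 567 and 390.2 with the lower combination and 786, 628 and 805 with the higher combination. The PABPC1L difference was -0.61 with DMSO and -2.71 with 1 µM GSK436, and only the parental DMSO arrays overlapped clone arrays. The MAVS signal on the parental arrays was 283, 239.9 and 399.9 with DMSO, 1058 and 788 with 0.1 µM GSK436, and 1025 and 1117 with 1 µM GSK436. With GSK212, alone or combined, it was 1126, 1023 and 606 with 10 nM GSK212 and 570.4 and 583 with 30 nM GSK212, and 973, 811 and 599 with the lower combination and 1092, 1092 and 1349 with the higher combination. MAVS, too, was higher on every drug-treated parental array than on the DMSO arrays. On the clone's arrays MAVS read 202 and 148 with DMSO, 149, 127 and 349.5 with 0.1 µM GSK436, and 117, 129.6 and 150 with 1 µM GSK436. GSK212, alone or combined, gave 343, 310.1 and 312 with 10 nM GSK212 and 477, 225 and 268 with 30 nM GSK212, and 418, 366 and 349.6 with the lower combination and 493, 287 and 496 with the higher combination. The MAVS difference was -0.79 with DMSO and -3.0 with 1 µM GSK436, and again only the parental DMSO arrays overlapped clone arrays. The other 3 probe sets naming MAVS alone were lower in the clone as well, by -1.42, -1.23 and -0.95 on the mean.

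The 3 members with the least negative mean were PRNP, NAA20 and TRMT6. The PRNP signal on the parental arrays was 3685, 4131 and 2829 with DMSO, 716 and 912 with 0.1 µM GSK436, and 1059 and 962 with 1 µM GSK436. Under GSK212, alone or combined, it was 749, 971 and 1644 with 10 nM GSK212 and 1559 and 1448 with 30 nM GSK212, and 1131, 1248 and 1327 with the lower combination and 986, 1389.5 and 1172 with the higher combination. The parental DMSO arrays of PRNP stood well above the treated ones. On the clone's arrays PRNP read 1962 and 2720.1 with DMSO, 2221, 2772 and 1261 with 0.1 µM GSK436, and 2589, 2366 and 2312 with 1 µM GSK436. For GSK212, alone or combined, it read 1717, 1824 and 2008 with 10 nM GSK212 and 1468, 2045 and 2053 with 30 nM GSK212, and 2212, 1478 and 1595 with the lower combination and 2016, 2328 and 2331 with the higher combination. PRNP was lower on every drug-treated parental array than on any parental array with DMSO, and its line difference was -0.60 with DMSO and 1.29 with 0.1 µM GSK436. The NAA20 signal on the parental arrays was 1964, 2252 and 1218 with DMSO, 550 and 866 with 0.1 µM GSK436, and 585 and 366 with 1 µM GSK436. GSK212, alone or combined, gave 587, 796 and 1211 with 10 nM GSK212 and 1187 and 983 with 30 nM GSK212, and 944, 1356 and 1301 with the lower combination and 560.5, 814 and 652 with the higher combination. Parental NAA20 values were spread widely within groups. On the clone's arrays NAA20 read 1244 and 2126 with DMSO, 1878, 1488 and 636 with 0.1 µM GSK436, and 1609.9, 1674 and 1843 with 1 µM GSK436. Under GSK212, alone or combined, it read 1308, 1321 and 1101 with 10 nM GSK212 and 715, 1146 and 1326 with 30 nM GSK212, and 1211, 1635 and 1325 with the lower combination and 1326, 1119 and 1205 with the higher combination. NAA20 was lower on every parental array with GSK436 alone than on any with DMSO, and the clone's array at 636 stood apart from the other arrays of its group. That array had an actin ratio (explained below) of 37.4, against 4.65 and 17.8 in its group. The TRMT6 signal on the parental arrays was 1596, 1401 and 1552 with DMSO, 459.6 and 687 with 0.1 µM GSK436, and 857 and 681 with 1 µM GSK436. With GSK212, alone or combined, it was 603, 571 and 502 with 10 nM GSK212 and 492 and 586 with 30 nM GSK212, and 460.1, 452 and 414 with the lower combination and 609.5, 609.7 and 575 with the higher combination. All treated parental arrays of TRMT6 lay well below the DMSO arrays. On the clone's arrays TRMT6 read 1298 and 1109.6 with DMSO, 1035, 1076 and 1370.3 with 0.1 µM GSK436, and 952, 913 and 1044 with 1 µM GSK436. GSK212, alone or combined, gave 739, 686 and 805 with 10 nM GSK212 and 814, 926 and 878 with 30 nM GSK212, and 762, 772 and 754 with the lower combination and 522, 663 and 763 with the higher combination. TRMT6, a subunit of the methyltransferase that modifies an adenosine of tRNA, was lower on every drug-treated parental array than on any parental array with DMSO.

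**Figure D3:**
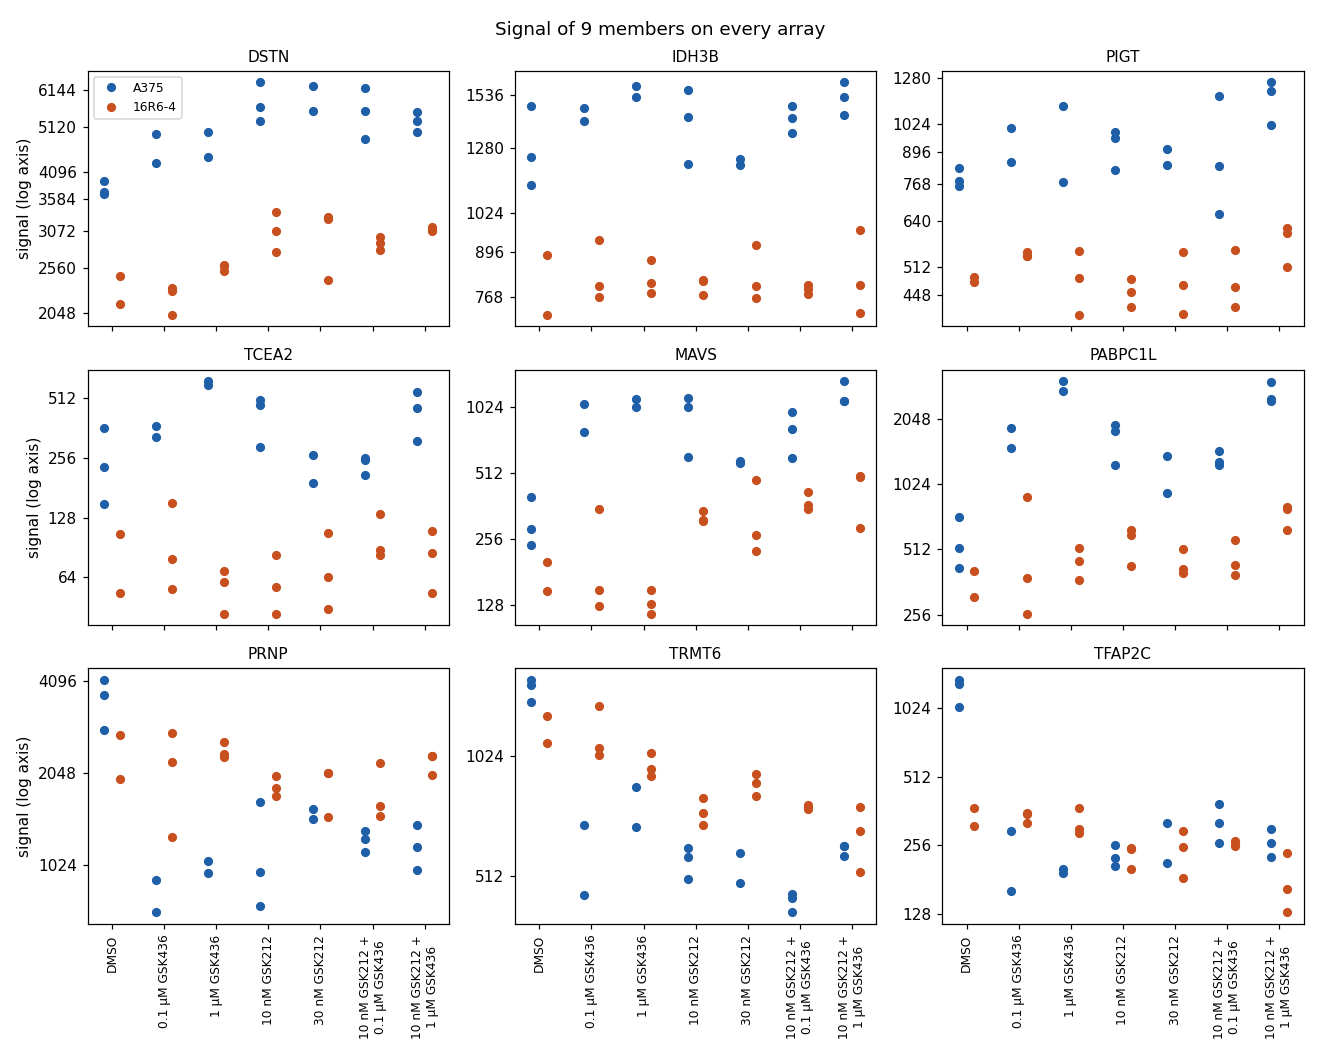
Signal of 9 members on every array (log axis) by treatment, A375 in blue and 16R6-4 in orange. DSTN, IDH3B and PIGT are separate on all arrays, TCEA2, MAVS and PABPC1L are further apart with 1 µM GSK436 than with DMSO, and PRNP, TRMT6 and TFAP2C fall on the parental arrays so that the order of the lines is lost or turned.

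Other probe sets of the same genes were read as a further measurement of the same RNA. Of 100 such probe sets 70 had a mean signal above the pooled median, naming 36 members. Of the 70, 59 had the sign of the chosen probe set on the 7-treatment mean and 54 were lower in the clone, with a median of -0.435. ADNP was 1 of the members whose probe sets disagreed, at 0.25 for the chosen probe set and -0.47 for another that was lower in all 7 treatments. RBM39 stood at 0.14 for the chosen probe set and at 0.28, -1.27 and -0.53 for others. RAE1 stood at -0.27 and 0.16, and CHD6 at -0.93 and 0.20, for the chosen and the next brightest probe set. A second probe set of DSTN stood at -0.52 and was lower in 5 of the 7 treatments. VAPB stood at -0.17 for the chosen probe set and lower, at -0.64 and -1.15, for its others. For 10 members a single probe set named the gene alone.

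RNA quality and cell identity were checked because both can move with signal. The actin ratio, the signal at the 3′ end of the actin transcript over that at its 5′ end, which is higher where RNA is degraded or shorter, ran from 3.72 to 45 and was above 20 on 15 of the 38 arrays. The group means were 7.75 in A375 and 5.46 in 16R6-4 with DMSO, and 37.4 and 28 in A375 with 0.1 and 1 µM GSK436 against 20 and 10.9 in the clone. DMSO groups thus had low and similar ratios, and the line difference with DMSO was -0.53 in the median member with the log2 ratio as a covariate. SOX10, a factor of the melanocyte lineage, read 427 to 1410 in A375 and 1.96 to 21 in 16R6-4, MITF read 283 to 734 and 864 to 1680, and PMEL, MLANA, TYR and TYRP1 had medians below the pooled median of 34.88 in both lines. The summed signal of 5 leukocyte markers was 70.5 to 260 in A375 and 73 to 249 in 16R6-4, and that of 5 fibroblast markers 82.9 to 713 and 38.4 to 479. S100B, another marker of the lineage, had medians of 59.6 and 2.34. Of 5 epithelial markers, the keratin KRT14 had medians of 1750 in A375 and 8.22 in 16R6-4, KRT18 3960 and 7220 and KRT5 59.1 and 4.6, while EPCAM (22.8 and 20.3) and CDH1 (8.93 and 3.38) lay below the pooled median in both lines, and their summed signal was 4120 to 8660 and 6340 to 13000. The part of RNA quality in the line differences under drug was not tested beyond the fit with the covariate, in which 30 members were lower in all 7 treatments.

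The effect of each drug on the members was tested within each line, treated against DMSO, with limma across all 18063 genes and Benjamini-Hochberg adjustment, a call being an adjusted p under 0.05. The list was not drawn from these contrasts, although the DMSO arrays of both lines and the treated arrays enter the line differences that it was drawn from. The 6 contrasts of a line share their DMSO arrays. In A375 9 members rose (15.4% of all genes did) and 17 fell (11.6%) with 0.1 µM GSK436, and with 1 µM GSK436 11 rose (16.2%) and 17 fell (13%). With 10 nM GSK212 9 rose (12.2%) and 14 fell (9.15%), and with 30 nM GSK212 5 rose (9.16%) and 11 fell (7.21%). With the lower combination 7 rose (10.8%) and 14 fell (8.4%), and with the higher combination 12 rose (16.8%) and 16 fell (11.7%). In both directions together 27%, 29.2%, 21.4%, 16.4%, 19.2% and 28.5% of all genes were called in these treatments, and 42.9%, 49.3%, 36.7%, 27.7%, 31.8% and 45.5% of brighter genes. The shares of the 54 members were 48.1%, 51.9%, 42.6%, 29.6%, 38.9% and 51.9%, close to the shares of brighter genes, so the list as a whole responded about as often as other genes of its brightness. The median member changed by between -0.15 and 0.05, beside -0.09 to -0.01 for the median brighter gene.

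The split into higher and lower calls depends on scaling, since the median of all genes lay 0.17 to 0.39 above DMSO on the deposited scale in A375 and at -0.43 to -0.12 after centring. After centring, 2 members rose and 30 fell with 0.1 µM GSK436, 2 and 25 with 1 µM GSK436, 3 and 16 with 10 nM GSK212, 1 and 20 with 30 nM GSK212, 2 and 23 with the lower combination and 2 and 27 with the higher one. After quantile normalization the splits were 10 and 13, 12 and 13, 11 and 14, 6 and 10, 10 and 11, and 16 and 15. With the log2 actin ratio as a covariate they were 5 and 14, 10 and 15, 11 and 16, 5 and 15, 10 and 17, and 11 and 17. That fit called 15.3%, 20.5%, 22.7%, 20.1%, 23.9% and 22.6% of all genes. Parental actin ratios were 37.2 to 37.5 with 0.1 µM and 23.3 to 32.6 with 1 µM GSK436, against 4.59 to 12 with DMSO. These ranges do not overlap, and the part of RNA quality in the GSK436 calls was not tested beyond this fit. All 22 members that fell in A375 in at least 1 treatment were called lower after centring too, and 17 of them after quantile normalization. Of the 17 that rose, PABPC1L, MAVS and RRBP1 were called higher after centring and 16 after quantile normalization, and 1 was called lower in a treatment after centring. Centring thus took most rises and no fall, and quantile normalization took 5 falls (ADNP, NDUFAF5, PANK2, RAE1 and RBM39) and 1 rise (EIF6).

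At least 1 parental treatment lowered 22 members (19.5% of all genes and 38.7% of brighter genes fell in at least 1) and raised 17 (26.7% and 30.7%). By role, 6 of the 10 RNA processing and translation genes, 5 of 8 chromatin and transcription genes, 4 of 5 mitochondrial genes and 2 of 12 genes of the reticulum and Golgi fell, and 7 of those 12 rose, with no test between roles. TFAP2C fell furthest. Its signal with DMSO was 1302, 1357 and 1036 in A375 and 203 and 193 with 1 µM GSK436, a log2 change of -2.61 ± 0.25 (SE, limma adjusted p = 1.18e-09). It changed by -2.46 with 0.1 µM GSK436, -2.40 with 10 nM GSK212, -2.21 with 30 nM GSK212, -1.93 with the lower and -2.21 with the higher combination, and no treated parental array overlapped the DMSO arrays. In the clone TFAP2C began lower, at 309.9 and 374 with DMSO, and fell by a call only with the higher combination (-0.97 ± 0.25, limma adjusted p = 0.00681), a call lost without the clone's DMSO replicate 2 (adjusted p = 0.128).

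PRNP fell by 2.11 on the log2 scale with 0.1 µM GSK436 (SE 0.26, limma adjusted p = 2.37e-07), by 1.72 with 10 nM GSK212, by 1.51 with the lower and by 1.58 with the higher combination. The call with the lower combination was lost when all probe sets of a gene were averaged (-1.05, adjusted p = 0.0769). In the clone the PRNP changes ran from -0.41 to 0.07 and none was called. TOP1, which relieves DNA supercoils, read 4043, 3974 and 4606 with DMSO and 1445 and 1496 with 30 nM GSK212 in A375, a change of -1.51 ± 0.13 (limma adjusted p = 1.08e-10), and 4095 and 3513 with DMSO, 3544, 3353 and 3257 with 1 µM GSK436, and 1501, 1569.9 and 1452 with the higher combination in the clone. TOP1 was the member with the most calls in the clone: -0.69 with 10 nM GSK212, -1.0 with 30 nM GSK212, -1.02 with the lower combination and -1.33 ± 0.13 with the higher combination (limma adjusted p = 2.56e-09). With GSK436 alone the clone's TOP1 arrays read 3257 to 4139.5, and no change was called. Without arrays of actin ratio above 20, where 1 clone array with 10 nM GSK212 was left, TOP1 changed by -0.63 with that dose and was not called (adjusted p = 0.0997).

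TRMT6 fell by 1.44 with 10 nM GSK212 (SE 0.15, limma adjusted p = 4.03e-09), and changed by -1.49 with 30 nM GSK212 and -1.77 with the lower combination in A375. In the clone TRMT6 was called lower with 10 nM GSK212 (-0.69), the lower combination (-0.65) and the higher combination (-0.90). The first and the second of these calls were lost on quantile normalization (adjusted p = 0.0685 and 0.0741) and without the clone's DMSO replicate 1 (0.181 and 0.164). SNRPB2 changed by between -1.64 and -1.01 in A375, MRPS26 by -1.03 to -0.74, CSE1L by -1.19 to -0.66 and ADRM1 by -1.25 to -0.60, and each of these was called lower in every parental treatment. SNRPB2 read 7592, 7542 and 7245 with DMSO and 2396 and 2381 with 0.1 µM GSK436 in A375 and 4129 and 4131 with DMSO and 3922, 3832 and 2579 with 0.1 µM GSK436 in 16R6-4, a line difference of -0.85 with DMSO and 0.50 with 0.1 µM GSK436. In all, 8 members were called lower in each of the 6 parental treatments, TFAP2C, PRNP, TRMT6, TOP1, SNRPB2, ADRM1, MRPS26 and CSE1L, beside 3.71% of all genes and 8.18% of brighter genes. ESF1 and POLR3F were called lower in 5, as was MKKS, whose largest change was -0.48. ADRM1 was not among those called in all 6 after quantile normalization.

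POLR3F and NAA20 fell most with 1 µM GSK436, with log2 changes of -2.19 (SE 0.39, limma adjusted p = 5.22e-05) and -1.92 (SE 0.33, limma adjusted p = 4.7e-05). In some groups their levels differed between arrays of unlike actin ratio, and in others they did not. In the clone with 10 nM GSK212, arrays with ratios of 27.4, 13.7 and 27.1 read 99.8, 91.2 and 106 for POLR3F. For NAA20 those clone arrays read 1308, 1321 and 1101. With 10 nM GSK212, the parental array with an actin ratio of 5.9 read 214 for POLR3F and 1211 for NAA20, while the arrays with ratios of 15.4 and 32.1 read 63.4 and 92 for POLR3F and 587 and 796 for NAA20. MAVS read 606 on the first of these arrays and 1126 and 1023 on the others. With 30 nM GSK212, parental arrays with ratios of 4.76 and 37.1 read 570 and 583 for MAVS. In the fit with the actin ratio as a covariate, MAVS and PABPC1L were called higher in all 6 parental treatments. With the actin ratio as a covariate the changes at 1 µM GSK436 were -1.70 for POLR3F and -1.41 for NAA20, and both were called (adjusted p = 0.000248 and 7.4e-05). ADNP and NDUFAF5 lost their parental calls in that fit (ADNP went from -1.10 to -0.36 at 1 µM GSK436), as did DYNLRB1 and EIF6 among the rising members. DPM1 fell in A375 with 0.1 µM GSK436 (-1.12), 1 µM GSK436 (-1.43) and the higher combination (-0.84), and with the covariate these changes were -0.75 (adjusted p = 0.0538), -1.12 (0.00148) and -0.59 (0.0625). XRN2 was called with 1 µM GSK436 (-1.57) and the higher combination (-1.35), where the covariate gave -0.61 (adjusted p = 0.0651) and -0.57 (0.0477), and its change of -1.17 with 0.1 µM GSK436, not called, became 0.01. The covariate left 20 of the 22 falling and 15 of the 17 rising members with a call.

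Rising members were led by PABPC1L and MAVS, called higher in each of the 6 parental treatments together with ERGIC3 (4.91% of all genes and 7.05% of brighter genes were). PABPC1L rose by 2.43 ± 0.30 with 1 µM GSK436 (SE, limma adjusted p = 2.43e-07), 2.31 with the higher combination, 1.63 with 0.1 µM GSK436, 1.60 with 10 nM GSK212, 1.30 with the lower combination and 1.07 with 30 nM GSK212. MAVS rose by 1.82 ± 0.32 with 1 µM GSK436 (limma adjusted p = 5.95e-05), 1.95 with the higher combination, 1.59 with 0.1 µM GSK436, 1.55 with 10 nM GSK212, 1.37 with the lower combination and 0.93 with 30 nM GSK212, where the call was lost on centring (adjusted p = 0.211) and without any of 4 single arrays. The PABPC1L call with 30 nM GSK212 was lost without DMSO replicate 2 (adjusted p = 0.0656) or the treated replicate 3 (0.252). ERGIC3 rose by 0.93 with the lower combination and 1.03 with the higher, and neither call held on centring. RRBP1 rose by 1.31 with 0.1 µM GSK436 and 1.02 with 10 nM GSK212, and DSTN by 0.64 with 30 nM GSK212, the RRBP1 call with 0.1 µM GSK436 and the DSTN call being lost on centring. When all probe sets of a gene were averaged RRBP1 changed by 0.61 and 0.35 in these treatments (adjusted p = 0.245 and 0.572), and neither call held, nor did those of DSTN, ERGIC3 and TCEA2. TCEA2 rose by 1.38 ± 0.41 with 1 µM GSK436 (limma adjusted p = 0.00988), a call lost on centring (adjusted p = 0.219) and without DMSO replicate 2 (adjusted p = 0.0755) or the treated replicate 3 (0.0828).

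In 16R6-4 limma called no member with 0.1 µM GSK436, where 0.00554% of all genes were called higher and 0% lower and 1 member had an unadjusted p under 0.05. It called none with 1 µM GSK436 either, where 0.0886% of all genes were higher and 0.00554% lower (0.0941% together, and 0.143% of brighter genes) and 0 members had an unadjusted p under 0.05. The clone's members were called where GSK212 was present. With 10 nM GSK212 0 rose (3.15% of all genes did) and 2 fell (1.3%), and with 30 nM GSK212 1 rose (4.76%) and 3 fell (2.46%). With the lower combination 2 rose (5.71%) and 4 fell (2.71%), and with the higher combination 5 rose (7.03%) and 8 fell (4.27%). Together 4.45%, 7.22%, 8.42% and 11.3% of all genes were called. The shares of brighter genes were 7.9%, 12.3%, 14.7% and 19.8%, and those of the members 3.7%, 7.41%, 11.1% and 24.1%. Centring turned these splits to 0 and 5, 0 and 12, 0 and 10, and 1 and 12. With an actin covariate they were 1 and 5, 2 and 6, 2 and 8, and 6 and 11. Without the clone's DMSO replicate 1 the counts of called members were 1, 1, 2 and 7. In all, 15 members were called in at least 1 clone treatment (13.4% of all genes and 22.6% of brighter genes were), 9 lower (4.79% and 10%) and 6 higher (8.56% and 12.6%). Each was called in the same direction in at least 1 treatment of A375, as were 84.5% of all genes and 89.1% of brighter genes called in the clone.

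With the higher combination MAVS rose in the clone by 1.24 ± 0.32 (limma adjusted p = 0.00838), EDEM2 by 1.10 ± 0.23 (adjusted p = 0.00123) and PABPC1L by 1.05 ± 0.30 (adjusted p = 0.0177). The EDEM2 and PABPC1L calls were lost on centring (adjusted p = 0.167 and 0.0947), and the MAVS and PABPC1L calls without the clone's DMSO replicate 2. EDEM2 read 90.7 and 78.7 with DMSO and 176, 163 and 219 with the higher combination in the clone, beside parental arrays with DMSO at 194, 211 and 233. With 30 nM GSK212 EDEM2 (0.78), MRPS26 (-0.72) and ADRM1 (-0.68), and with the lower combination MAVS (1.11), NDRG3 (0.58) and ADRM1 (-0.81), were called in the clone. The 3 calls with 30 nM GSK212, and the MAVS call with the lower combination, were each lost on quantile normalization, the NDRG3 call on centring and the ADRM1 call with the lower combination without arrays of high actin ratio. Leaving out single arrays ended each of these 6 calls in at least 1 case. Whether a member's response differed between the lines was not tested.

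**Figure D4:**
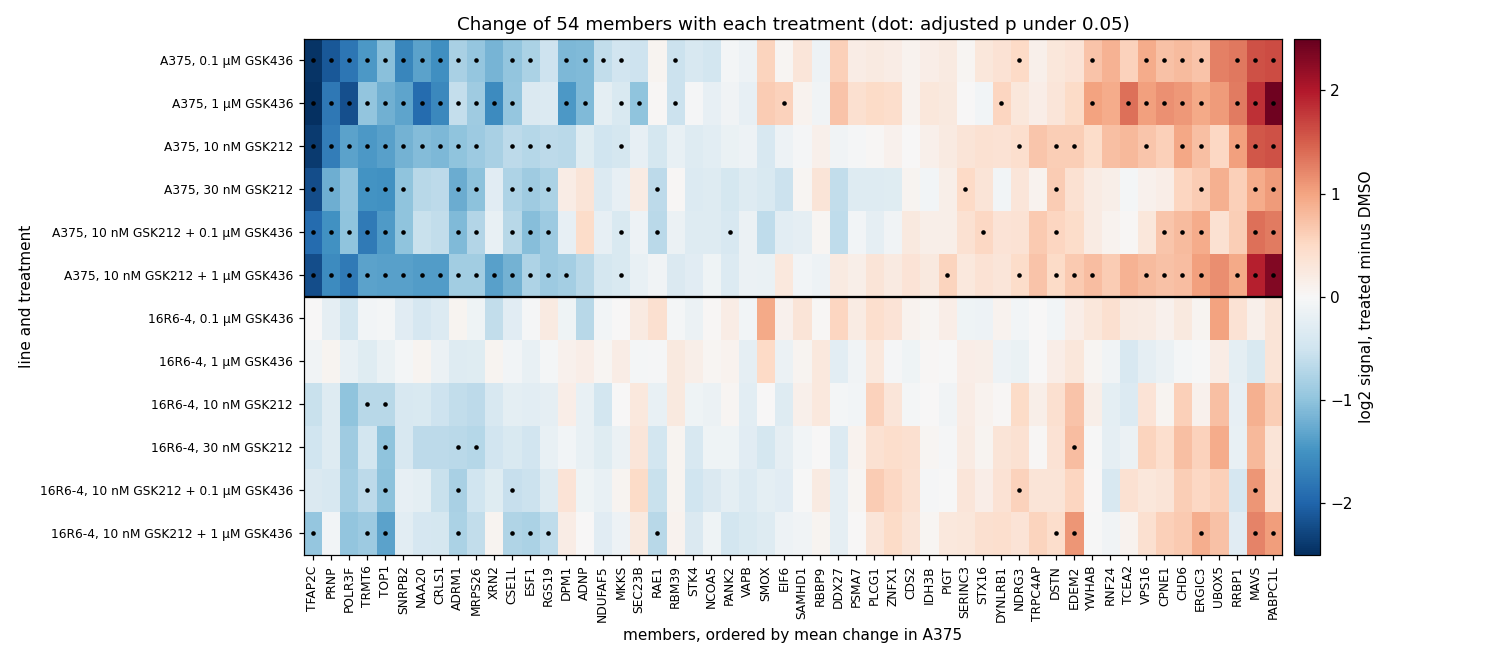
Log2 signal, treated minus DMSO, of the 54 members (columns, ordered by their mean change in A375) in the 6 treatments of A375 (upper rows) and of 16R6-4 (lower rows), with a dot where the adjusted p was under 0.05. TFAP2C, PRNP and POLR3F lead the falls and PABPC1L and MAVS the rises in A375, and the clone's rows with GSK436 alone hold no dot.

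Line differences and parental responses are tied by construction, since the line difference with a drug contains the parental arrays with that drug. Read side by side, 19 of the 22 members that were not lower in all 7 treatments fell in at least 1 parental treatment and 0 rose. Beside them, 19.5% of all genes and 38.7% of brighter genes fell, and 26.7% and 30.7% rose. Of the 32 members that were lower in all 7, 3 fell (PANK2, MKKS and RGS19), 17 rose and the others were not called. STK4, DDX27 and ZNFX1 were the members that left the pattern with no parental call.

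Partners of the members in protein complexes and families, encoded on other chromosomes, were not chosen by the rule, and their line difference was tested on the mean of the 7 treatments. Of 134 partners listed 128 were measured. In 16R6-4 61 were higher (21.2% of all genes were) and 32 lower (32%), beside 53.2% of all genes and 75.6% of brighter genes called in either direction (34.7% of brighter genes lower), with a median of 0.15. Of the 7679 brighter genes 3134 were higher and 2668 lower. After quantile normalization 49 were higher and 36 lower, and after centring 92 and 8, with medians of 0.07 and 0.54 beside 0.03 and 0.45 for the brighter genes. Of the brighter genes 2998 were higher and 2674 lower after quantile normalization, and 4725 and 1070 after centring. The same background holds for the counts by set below.

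Of 27 proteasome partners 17 were higher and 8 lower (13 and 7 after quantile normalization, 21 and 0 after centring), with a median of 0.24, while the chromosome 20 subunits PSMA7 and ADRM1 stood at -0.53 and -0.15. PSMA3, an alpha subunit, was higher by 1.12 ± 0.18 (SE, limma adjusted p = 3.01e-06), with mean signals of 1590 in A375 and 2890 in 16R6-4. PSMA4, an alpha subunit encoded on chromosome 15, was different by -0.53 ± 0.05 (limma adjusted p = 2.06e-11). Subunits of this complex differed in both directions on the deposited scale. Of 26 partners of MRPS26 in the small subunit of the mitochondrial ribosome 17 were higher and 3 lower (11 and 5 after quantile normalization, 22 and 1 after centring), from MRPS30 at 1.20 ± 0.12 to MRPS11, of chromosome 15, at -0.63 ± 0.06, and MRPS26 itself stood at -0.03.

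The tethers HOPS and CORVET were a set in which most partners were lower, as their member was. With VPS16 at -1.55, 5 of its 6 partners were lower and 0 higher (4 and 1 after centring), VPS39 by the most, at -1.85 ± 0.12 (limma adjusted p = 4.94e-15), with mean signals of 393 in A375 and 120 in 16R6-4. VPS41 stood at -0.89, VPS18 at -0.79, VPS8 at -0.70, VPS11 at -0.55 and VPS33A at -0.06. VPS39 and VPS18 are encoded on chromosome 15. Of 5 partners of PIGT and DPM1 in GPI anchoring and dolichol phosphate mannose synthesis 3 were lower, led by DPM3 at -0.89 ± 0.09 (limma adjusted p = 1.96e-10), and 0 higher (after centring 2 and 1).

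In the Hippo kinase module, whose member STK4 did not differ by more than 0.28 in any treatment, 5 of 6 partners were higher, led by SAV1 at 0.91 ± 0.09 (limma adjusted p = 3.62e-10), and 0 lower. This count was 5 after quantile normalization and 6 after centring. Among 6 other 14-3-3 proteins YWHAH was higher by 0.96 ± 0.13, and 3 were lower, led by SFN at -0.53 ± 0.12 (3 higher and 0 lower after centring), against -0.80 for YWHAB. Of 8 dynein partners of DYNLRB1 DYNC1LI1 was higher at 0.42 and DYNC1H1 (-0.30) and DYNC1LI2 (-0.29) were lower (6 higher and 0 lower after centring). Of 5 partners of MAVS in RNA sensing TBK1 was higher at 0.54 ± 0.15, and RIGI, at -0.67 ± 0.15, and IRF3, at -0.55, were lower (2 higher and 1 lower after centring).

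Of 8 partners of POLR3F in RNA polymerase III 4 were higher, led by POLR3K at 1.08 ± 0.10, and POLR3GL was lower at -0.41 (4 higher and 2 lower after quantile normalization, 6 and 0 after centring). Of 7 U2 snRNP partners of SNRPB2 4 were higher, led by SF3B1 at 0.75 ± 0.13, and 0 lower, and after quantile normalization 2 were higher and 1 lower, and after centring 6 and 0. Complex I assembly held 3 higher, led by NDUFAF4 at 1.23 ± 0.11, and NDUFAF1, of chromosome 15, at -0.35, of 6 (5 higher and 0 lower after centring). COPII coat partners of SEC23B held 4 higher, led by SEC24B at 0.83 ± 0.15, and 2 lower, led by SEC24C at -0.44, of 9 (3 and 2 after quantile normalization, 6 and 0 after centring). NUP98, a partner of RAE1, was higher by 1.06 ± 0.07, and KPNA2, cargo of CSE1L, by 0.42, of 3 partners in nuclear transport, all of which were higher after centring. NAA25, the other subunit of NatB, was higher by 0.58 and TRMT61A, the partner of TRMT6, stood at -0.06. IDH3A, of chromosome 15, was higher by 0.25 (not called after quantile normalization) and IDH3G, of chromosome X, was lower at -0.56, beside IDH3B at -0.78. NCOA1, a relative of NCOA3, was lower at -0.66, and NCOA2 stood at -0.03. Of the 7 partners on chromosome 15, 5 were lower and 2 higher (IDH3A, and SNRPA1 of the U2 snRNP at 0.46), with a median of -0.53. Of the other 121, 59 were higher and 27 lower, with a median of 0.15.

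**Figure D5:**
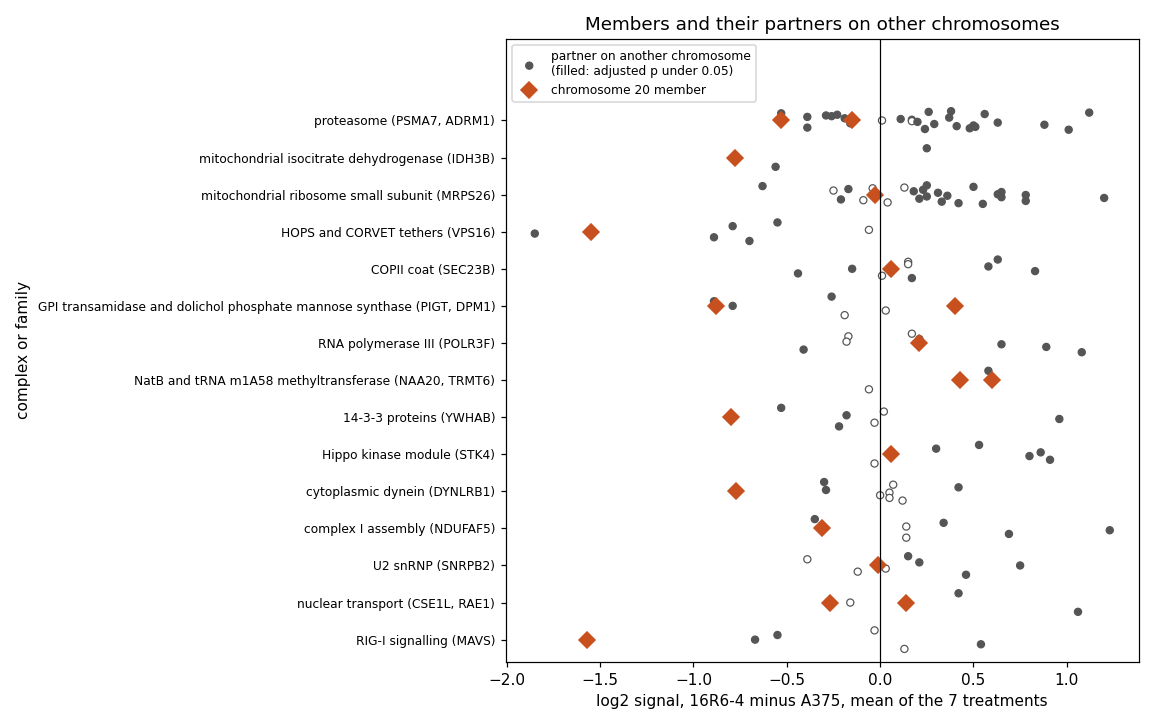
Log2 signal in 16R6-4 minus A375, mean of the 7 treatments, of the chromosome 20 members (orange diamonds) and their partners on other chromosomes (circles, filled where the adjusted p was under 0.05) by complex or family. Partners of VPS16 lie to the left with it, while most proteasome and Hippo partners lie to the right of 0.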

How the data were processed

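The 38 deposited tables hold one-colour Affymetrix intensity values per probe set, on a linear scale, made by the authors with MAS5 per the submitters' processing notes. Settings, genome build and array scaling target are not given in the sources used here, and signals ran from 0.02 to 90603.2. Of 54675 probe sets 41097 named 1 gene in the platform annotation, 1801 several and 11777 none. Probe sets above 34.88, the pooled median, on at least 2 arrays were kept (35888), and the one with the highest mean log2 signal stood for each of 18063 genes. Values were log2(signal + 2.8), so differences of dim genes are understated. One limma model (limma 3.58.1, R 4.3.3) with 14 group means, a trended prior and 24 residual degrees of freedom gave all contrasts, with Benjamini-Hochberg adjustment over all genes and calls at 0.05. The number of arrays limits the precision. The members and lists were chosen with earlier results of these data known. Text values are given for the 3 members with the most and least negative mean line difference, the brightest of each role, and per treatment up to 3 called members in each direction with the largest change; other members are described by counts or singled out after their values were seen. Data were simulated for 10 nM GSK212 against DMSO in A375 (18063 genes, 200 changed). The fit recovered 2.99% of changes of 0.5, 35.8% of 1 and 51.5% of 2 on the log2 scale, with 7 false calls. In the data 21.4% of genes were called in that contrast, and 52 of the 54 measured members are brighter genes. The simulated shares therefore do not give the sensitivity for the members. Alternatives covered scaling, pseudocount, filter, probe set rule, RNA quality, prior, samples fitted, fold limit, replicate block and single arrays left out; the fit without arrays of actin ratio above 20 was chosen after seeing the data. Figures and promoter searches used Python 3.11.15, pandas 2.3.3 and matplotlib 3.10.9. NCOA3 was not analysed here.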

Additional observations from a re-analysis of the deposited data

Results flagged for a closer look

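With 1 µM GSK436, every treated array of A375 lay on one side of the mean of its DMSO arrays and every treated array of 16R6-4 on the other side of its own for 12 members (16.5% of all genes and 24.6% of brighter genes did so). For 9 of them limma called the parental change. VPS16 changed by 1.02 in A375 and by -0.23 in 16R6-4, MAVS by 1.82 and -0.39, and TCEA2 by 1.38 and -0.41. RRBP1 changed by 1.29 in A375 and -0.25 in the clone, DYNLRB1 by 0.54 and -0.12, and EIF6 by 0.58 and -0.15. In the opposite sense, PRNP changed by -1.79 in A375 and 0.07 in the clone, MKKS by -0.38 and 0.18, and RBM39 by -0.54 and 0.25. With the higher combination 3 members were split in this way (6.39% of all genes and 9% of brighter genes), and limma called the parental change of 2 of them, RRBP1 (0.94 in A375 and -0.28 in the clone) and DPM1 (-0.84 and 0.19). In neither treatment were members split in this way more often than brighter genes. None of these clone changes was called, and the differences between the lines were not tested. The splits were counted on the deposited scale only. Centring took the parental calls of VPS16, TCEA2, DYNLRB1 and EIF6. Quantile normalization took those of EIF6 and RBM39, and the actin covariate those of DYNLRB1 and EIF6. With 1 µM GSK436 the mean actin ratio was 28 in A375 and 10.9 in the clone.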

How the results depend on the processing

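After centring each array on its median, the members' median line difference became -0.28 with DMSO, 0.24 (0.1 µM) and 0.28 (1 µM) for GSK436, -0.33 (10 nM) and -0.24 (30 nM) for GSK212, -0.09 for the lower and -0.06 for the higher combination and -0.09 on the mean, that of all measured chromosome 20 genes became -0.08, and the clone's counts of called members became 5 with 10 nM GSK212, 12 with 30 nM GSK212 and 10 with the lower combination. When a gene's probe sets were averaged the medians were -0.47 with DMSO, -0.33 with 0.1 µM GSK436, -0.51 (10 nM) and -0.33 (30 nM) for GSK212, -0.46 and -0.49 for the combinations and -0.42 on the mean, and the counts were 17 with 0.1 µM GSK436, 8 with 30 nM GSK212 and 12 with the lower combination in A375 and 4 with 10 nM GSK212 in the clone. With the actin ratio as a covariate the median with the higher combination was -0.49 and the clone's counts were 6, 8 and 10 with 10 nM GSK212, 30 nM GSK212 and the lower combination. Without arrays of actin ratio above 20, that median was -0.49 and the clone's count with 10 nM GSK212 was 0, and GSK436 alone in A375 could not be fitted because no array was left. A filter at the 75th percentile gave 4 calls with 10 nM GSK212 in the clone, and a prior without trend gave 2 with 30 nM GSK212. Fitting only the groups compared gave 15 with 10 nM GSK212 in A375 and 6 and 1 with 10 and 30 nM GSK212 in the clone. Requiring a log2 difference of at least 1 left 7 partners, 13, 12, 8, 10 and 13 members in A375 (0.1 µM GSK436, 10 and 30 nM GSK212, lower and higher combination) and 0, 0, 2 and 4 in the clone (10 and 30 nM GSK212, lower and higher combination). Leaving out single arrays, the median line difference ranged from -0.67 to -0.48 with DMSO, -0.50 to -0.28 (0.1 µM) and -0.52 to -0.44 (1 µM) for GSK436, -0.53 to -0.39 (10 nM) and -0.46 to -0.34 (30 nM) for GSK212, -0.47 to -0.33 and -0.61 to -0.49 for the combinations, -0.52 to -0.46 on the mean, and -0.52 to -0.46 for all chromosome 20 genes. Called partners ranged from 87 to 99. Called members in A375 ranged from 17 (without replicate 2 of 0.1 µM GSK436) to 29, from 18 (without replicate 3 of 1 µM GSK436) to 31, 17 to 29, 11 to 15, 15 to 19 and 20 to 31 in the order of treatments used above, and in the clone from 0 to 0 with either dose of GSK436, 1 to 3 and 1 to 3 with 10 and 30 nM GSK212, 2 to 6 and 7 to 11 with the combinations, the low ends being without DMSO replicate 1. Where an arm was left with 1 array, that array is assumed to vary like the other groups. Deviations of same-numbered arrays correlated at -0.27 to 0.16 (27 pairs, 2 over 0.1). Those of differently numbered arrays correlated at -0.17 to 0.17 (54 pairs, 8 over 0.1). No pairing by replicate number was seen, but deviations within groups of 2 or 3 arrays depend on one another, so these values cannot exclude it. With the replicate block, 10 members rose and 18 fell with 0.1 µM GSK436 in A375, 12 and 17 with 1 µM GSK436, 9 and 14 with 10 nM GSK212, 4 and 11 with 30 nM GSK212, 7 and 13 with the lower and 13 and 16 with the higher combination, and in the clone 0 and 2, 1 and 3, 2 and 3, and 5 and 7 where GSK212 was present. Of the named responses the block took 1 call, EDEM2 with 30 nM GSK212 in the clone (adjusted p = 0.0557). For named responses the direction was the same in all fits, and 60 of their values in other settings and 36 with single arrays left out were no longer called.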
